A study of Mus musculus with 54 samples.

Results

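Peritoneal macrophages polarized for 24 h toward the M1-like or the M2-like state were compared across the whole transcriptome, beyond the metabolic and literature signature genes on which the study centred. The comparison was chosen by its labels alone: 12 of the 54 RNA sequencing libraries of the series are M1-like or M2-like libraries of the polarization experiment, and they come from 3 C57BL/6 mice with 2 technical libraries per mouse and condition, summed here to 3 M1-like and 3 M2-like samples. The mice were 8 to 20 weeks old and had received thioglycolate, an irritant that draws monocytes into the peritoneal cavity, 4 days before lavage. For 24 h the adherent cells received either LPS (100 ng/ml) together with IFNγ (50 ng/ml), which gave the M1-like condition, or IL-4 (10 ng/ml), which gave the M2-like condition, and unstimulated cells of the same mice (M0) also entered the model. Adherence was the only purification, so the samples are bulk cultures in which fewer cells of a type and less RNA per cell cannot be told apart. Reads of 50 nucleotides were counted per gene, and the summed samples held 39577911 to 59443987 counted reads.

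LPS, a bacterial cell wall component, is sensed by Toll-like receptor 4 and switches on NF-κB and interferon regulatory factors, while IFNγ acts through Janus kinases. IL-4 acts through STAT6 and is the cytokine of responses to helminths and of tissue repair. Macrophages exposed to the first pair kill microbes, present antigen and release inflammatory mediators, whereas macrophages exposed to IL-4 take up debris, handle lipids and support repair.

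Of 16110 genes tested, 5573 (34.6%) had a higher level in the M1-like condition and 6130 (38.1%) a lower one, so that 72.6% of the measured transcriptome was called at an adjusted p-value under 0.05. These shares are the background against which every group of genes has to be read. At least a doubling, a log2 fold change of 1 or more, was reached by 2479 of the higher genes (15.4% of those tested), and 2446 of the lower genes (15.2%) fell to that extent. Large differences were more often increases: 277 genes were higher by a log2 fold change of at least 5 and 142 were lower by as much, while the medians of the called genes were 0.85 and -0.79. The 3 M1-like and the 3 M2-like values did not overlap in 11310 of the 11703 called genes and in 73.8% of all genes tested. Of the 4925 genes called with a log2 fold change beyond 1 either way, 4856 lie outside the study's signature genes.

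**Figure D1:**
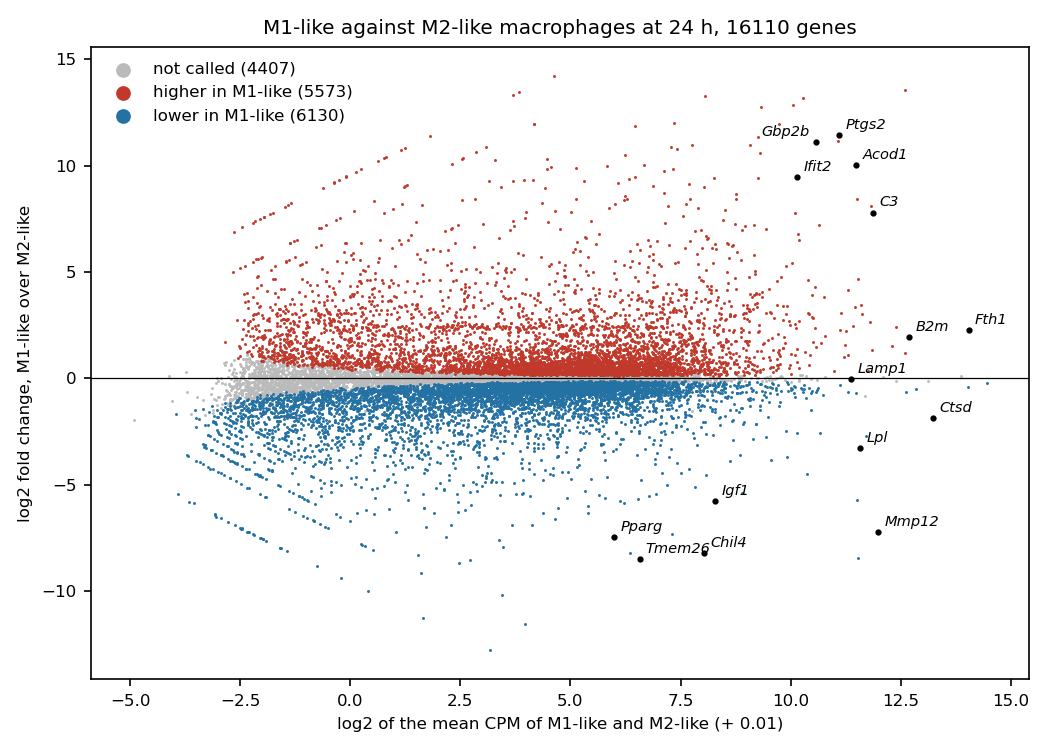
Log2 fold change of M1-like over M2-like macrophages (vertical axis) against the log2 of the mean CPM of both conditions (horizontal axis) for 16110 genes, with 5573 higher genes in red, 6130 lower genes in blue and genes that were not called in grey. The labelled genes reach from Ptgs2 at 11.45 to Tmem26 at -8.50.

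The balance between increases and decreases rests on how the libraries were scaled. TMM scaling, which centres the bulk of the genes, gave 47.6% of the calls to M1-like cells, whereas scaling by library size alone shifted the median of all genes by -0.44 and left 24.8% of the calls on that side (3222 higher, 9795 lower). With that scaling 1824 genes were higher and 4344 lower by a log2 fold change of at least 1. In M1-like cells the 1000 most abundant genes took 64.6 to 65.3% of the reads, compared with 59.5 to 59.9% in M2-like cells. The 100 most abundant genes differed less, at 31.51 to 32.17% in M1-like and 30.22 to 30.47% in M2-like cells. The 10 most abundant genes went the other way, at 11.03 to 11.13% in M1-like and 13.30 to 13.45% in M2-like cells. A median of -0.06 over all genes is therefore the reference for every group median given here, and changes smaller than 0.44 depend on the scaling.

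M0 macrophages were close to the M2-like side. Compared with M0, 2389 genes were higher and 2539 lower by a log2 fold change of at least 1 in M1-like cells (14.8% and 15.8% of those tested), but 290 and 272 in M2-like cells (1.8% and 1.69%); both comparisons share the M0 samples. Of the 2479 genes that were higher in M1-like cells, M0 lay between the conditions and nearer to M2-like in 1303, below both in 1044, nearer to M1-like in 122 and above both in 10. Of the 2446 lower genes, M0 lay above both in 1246, nearer to M2-like in 1034, nearer to M1-like in 133 and below both in 33. These positions compare means without a threshold, so a small difference between M0 and M2-like cells is enough to set the side of M2-like on which M0 lies.

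Macrophage markers were far more abundant than those of other cells. The 10 macrophage markers summed to 10402 to 11399 CPM in M1-like and 12732 to 13062 CPM in M2-like samples. The 8 T cell, 6 B cell, 6 NK cell, 8 neutrophil, 6 mast cell and 4 erythroid markers each summed to at most 25.9 CPM in any of these samples, and the eosinophil granule genes Epx and Prg2 and the neutrophil genes Elane and S100a9 had no count in any. The 6 eosinophil markers summed to 0.499 to 0.9997 CPM in M1-like and 14.4 to 19.5 CPM in M2-like samples, and the 6 fibroblast markers to 9.40 to 12.6 and 16.5 to 22.6 CPM. Siglecf, at 13.6 to 18.5 CPM in M2-like samples, made up most of the eosinophil sum, and within the fibroblast list Dcn went the other way, with 4.70 to 6.41 CPM in M1-like and 1.14 to 2.13 CPM in M2-like samples. The neutrophil markers summed to 9.55 to 14.4 CPM in M1-like and 5.85 to 7.04 CPM in M2-like samples, and the 6 mesothelial markers to 0.135 to 0.416 and 1.67 to 2.06 CPM. The macrophage, eosinophil, fibroblast, neutrophil and mesothelial sums thus did not overlap between the conditions, and their part in the results was not tested. Of the 10 macrophage markers, 5 were higher and 5 lower in M1-like cells. Lyz2 held the largest part of their sum, at 5802 to 6393 CPM in M1-like and 8433 to 8759 CPM in M2-like samples. Adgre1 went the other way, at 1374 to 1553 and 342 to 408 CPM. S100a8, at 9.09 to 13.4 and 5.62 to 6.80 CPM, made up most of the neutrophil sum, while Cxcr2 was lower in M1-like cells. Sums of the 6 dendritic cell markers overlapped, at 3.18 to 3.86 and 3.69 to 7.64 CPM. M2-like mouse 1 stood apart from M2-like mice 2 and 3, with a correlation across 7362 genes of 0.983 and 0.978 compared with 0.998 between the other two, and counts without it are given where it decides a value.

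Among genes with a mean log2 CPM of at least 3 over the samples, the 15 largest increases in M1-like macrophages included Ptgs2, Acod1, C3, Clec4e, Cd38 and Slco3a1. Ptgs2, which encodes the inducible cyclooxygenase COX-2 (chr1:150100031-150108227, plus strand), was at 4894, 4420.5 and 3895 CPM in M1-like and 2.38, 1.13 and 1.31 CPM in M2-like cells (log2 fold change 11.45, SE 0.26, edgeR adjusted p = 3.3e-12). Acod1, the enzyme that makes itaconate from a Krebs cycle intermediate, was at 5879, 5701 and 5699 CPM in M1-like and 6.99, 4.52 and 5.26 CPM in M2-like cells (log2 fold change 10.02, SE 0.18, edgeR adjusted p = 4.8e-13). Every M1-like value of both genes lay far above every M2-like and M0 value, and M0 held 1.0 and 5.62 CPM. C3, the central component of complement, was at 6857, 7293 and 8189 CPM in M1-like and 37.2, 31.1 and 32.8 CPM in M2-like cells (log2 fold change 7.79, SE 0.11, edgeR adjusted p = 1.6e-13), and Clec4e, the lectin receptor Mincle for mycobacterial glycolipid, was at 6040.2, 5783 and 5584 CPM in M1-like and 25, 13.2 and 13.1 CPM in M2-like cells (log2 fold change 8.41, SE 0.27, edgeR adjusted p = 5.4e-11). Cd38, an ectoenzyme that degrades NAD, was at 531, 444 and 443 CPM in M1-like and 3.1, 1.2 and 1.36 CPM in M2-like cells, a difference of 8.01 ± 0.27 on the log2 scale (SE). Slco3a1, an organic anion transporter, was at 377, 350.3 and 443 CPM in M1-like and 1.44, 1.45 and 1.11 CPM in M2-like cells (8.20 ± 0.14). Values written with ± are log2 fold changes with their SE, and each of these was called by edgeR at an adjusted p-value under 0.05.

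The other genes among these 15 included GTPases and further proteins known from the interferon response. Gbp2b and Gbp2 encode guanylate-binding proteins, GTPases that attack the vacuoles of intracellular pathogens. Gbp2b was at 3101, 2987 and 3028 CPM in M1-like and 1.83, 1.1 and 1.31 CPM in M2-like cells (log2 fold change 11.09, SE 0.18, edgeR adjusted p = 3e-13), and Gbp2 at 7278, 7068 and 7291 CPM in M1-like and 32.7, 24.6 and 21.2 CPM in M2-like cells (log2 fold change 8.11, SE 0.17, edgeR adjusted p = 1.3e-12). Tgtp2, an immunity-related GTPase, was at 1187, 1263 and 1361 CPM in M1-like and 0.926, 0.831 and 0.707 CPM in M2-like cells (log2 fold change 10.60, SE 0.15, edgeR adjusted p = 1.6e-13). None of the M2-like samples exceeded 1 CPM of Tgtp2. Ifit1 and Ifit2, which restrain translation of viral RNA, differed by 7.92 ± 0.18 and 9.46 ± 0.17, and Mx1, of the dynamin-like GTPase family, by 8.68 ± 0.14. Slfn1 of the Schlafen family differed by 8.42 ± 0.12, the nucleic acid sensor family member Ifi206 by 8.42 ± 0.13 and the gene model Gm43302 by 9.44 ± 0.13. Gbp2b and Gbp2 are close paralogs, as are the Tgtp and Ifi200 genes, so that reads of 50 nucleotides may have been divided between copies.

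**Figure D2:**
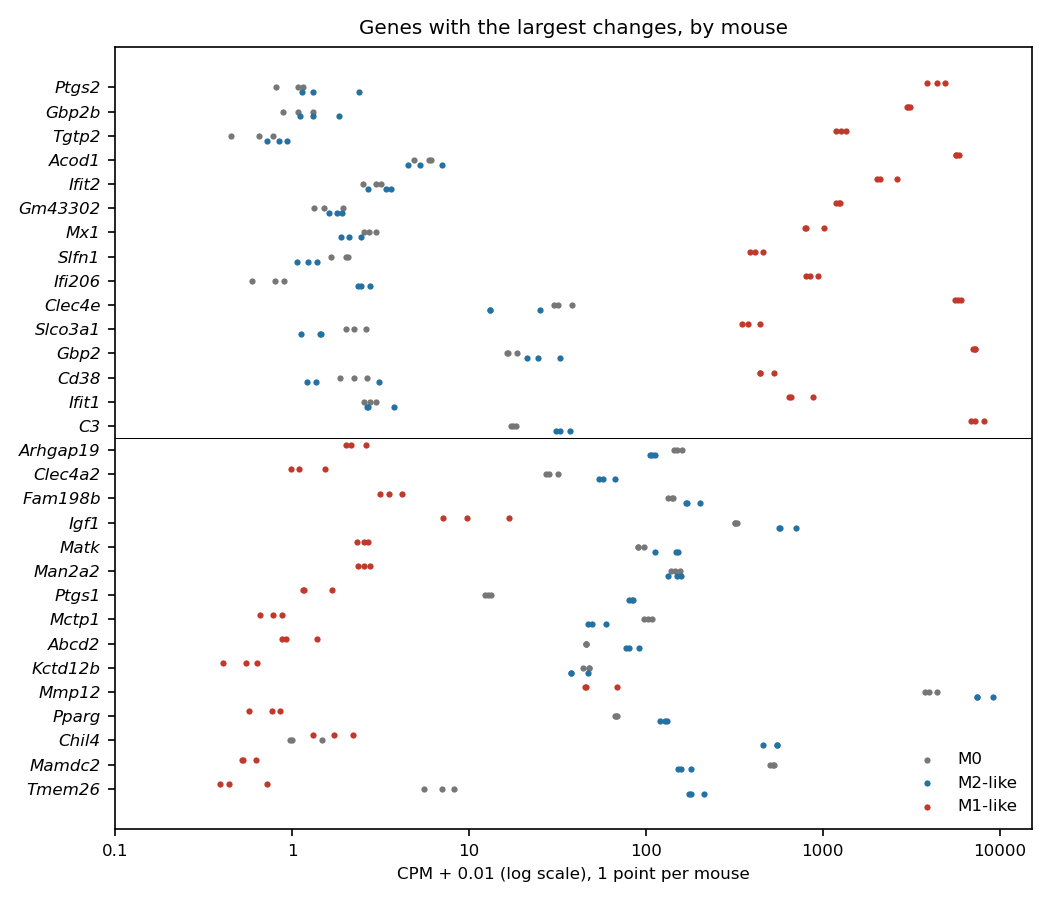
CPM of each mouse (horizontal log axis) for the 15 largest increases, above the line, and the 15 largest decreases, below it, with M1-like in red, M2-like in blue and M0 in grey. The red points do not overlap the blue points in any of the 30 genes, and on the log axis the grey points lie nearer to the blue than to the red ones except in Chil4 and Tmem26.

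The promoters of these genes can be read for the interferon-stimulated response element, to which interferon regulatory factors bind. Among 12 of the 15 largest increases with a RefSeq promoter (GRCm38.p6), 5 held TTTC, any 2 bases and TTTC on either strand within the 250 bases before a gene start, and among 10 of the 15 largest decreases none did. The following 60-base stretches show 1 match per gene in capitals, at chr3:142594690-142594749 (plus strand), chr3:142620584-142620643 (plus strand), chr11:49064243-49064302 (minus strand), chr1:173491319-173491378 (minus strand) and chr19:34640784-34640843 (plus strand).
Gbp2b: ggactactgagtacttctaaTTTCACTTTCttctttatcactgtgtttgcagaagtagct
Gbp2: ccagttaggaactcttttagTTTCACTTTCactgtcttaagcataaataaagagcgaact
Tgtp2: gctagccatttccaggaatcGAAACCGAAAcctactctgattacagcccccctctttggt
Ifi206: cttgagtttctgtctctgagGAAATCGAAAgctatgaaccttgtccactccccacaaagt
Ifit1: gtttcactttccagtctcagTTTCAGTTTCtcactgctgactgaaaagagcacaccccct
Gbp2b and Gbp2 share the same 10 letters of the match, and Tgtp2 and Ifi206 carry the element on the opposite strand. Ifit1 holds 2 matches, both in the stretch shown, and the one farther from the gene start is in lower case. Over all 32851 promoters in the table the letters occurred in 2.98%, and in 2.80% of the promoters of tested protein-coding genes. They occurred in 11.3% of 556 promoters of genes higher by a log2 fold change of at least 3, in 6.22% of 1833 promoters of genes higher by at least 1, and in 2.60% of 462 promoters of genes lower by at least 3. The AP-1 letters TGANTCA were found in 11.5% of promoters of genes higher by at least 3 and in 9.74% of those lower by at least 3, compared with 4.66% for all tested protein-coding genes. CACGTG, the E-box, was found in 4.50% and 6.06% against 8.16%, and the STAT letters TTCNNNGAA in 9.35% and 6.28% against 5.96%. The NF-κB letters (GGGA, any base, TTTCC) were found in 1.08% and 0.866% against 0.393%, the first 2 shares being only 6 and 4 promoters. TTC and GAA set 4 bases apart, the spacing that STAT6 prefers, were found in 7.37% and 6.71% against 4.78%, and TGACNNNGC, the letters of the antioxidant response element, in 10.4% and 9.96% against 11.7%. These are shares of promoters and not of genes: the 556 promoters belong to 443 genes, so a gene can count more than once. A match is a description of letters and is not a binding site.

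By the same expression limit, the 15 largest decreases in M1-like macrophages included Pparg, Mmp12, Igf1, Abcd2 and Ptgs1. Pparg, the nuclear receptor that directs lipid uptake and storage (chr6:115360951-115490399, plus strand), was at 0.757, 0.843 and 0.562 CPM in M1-like and 132, 128 and 119.6 CPM in M2-like cells (log2 fold change -7.47, SE 0.10, edgeR adjusted p = 1.6e-13). Mmp12, the macrophage elastase, was at 68.5, 45.9 and 45.1 CPM in M1-like and 9215, 7451 and 7455 CPM in M2-like cells (log2 fold change -7.24, SE 0.19, edgeR adjusted p = 9.6e-12). Igf1, the insulin-like growth factor, was at 7.16, 9.68 and 16.9 CPM in M1-like and 705, 564 and 573 CPM in M2-like cells (log2 fold change -5.76, SE 0.26, edgeR adjusted p = 1.2e-09). On the log2 scale M0 was nearer to M2-like than to M1-like cells in each of these genes, at 67.8, 4069 and 322 CPM. Abcd2, which carries very long fatty acids into peroxisomes, differed by -6.32 ± 0.13, and Ptgs1, the constitutive cyclooxygenase, by -5.98 ± 0.11. The constitutive and the inducible cyclooxygenase thus stood on opposite sides, with Ptgs1 at 1.68, 1.15 and 1.14 CPM in M1-like and 84.4, 80.3 and 83.6 CPM in M2-like cells.

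Chil4 and Tmem26 were rare in both M0 and M1-like cells. Chil4, a chitinase-like protein made under IL-4, was at 1.3, 1.71 and 2.18 CPM in M1-like and 552, 459 and 551 CPM in M2-like cells (log2 fold change -8.21, SE 0.18, edgeR adjusted p = 2.2e-12), with 0.96, 0.988 and 1.47 CPM in M0. Tmem26, a transmembrane protein, was at 0.432, 0.383 and 0.707 CPM in M1-like and 214, 179 and 175 CPM in M2-like cells (log2 fold change -8.50, SE 0.20, edgeR adjusted p = 3.7e-12), with 5.58, 7.01 and 8.25 CPM in M0. Mamdc2 went the other way, since its M0 level of 519 CPM lay above both M2-like (158, 179 and 152 CPM) and M1-like cells (0.513, 0.613 and 0.52 CPM). Chil4 has close paralogs, and its reads may be shared with them.
The remaining decreases covered several roles. Man2a2, a Golgi mannosidase, differed by -5.85 ± 0.10, Matk, a kinase that restrains Src kinases, by -5.76 ± 0.13, and Arhgap19 by -5.60 ± 0.09. Clec4a2, a lectin receptor that carries an inhibitory motif, differed by -5.61 ± 0.14, Mctp1 by -6.11 ± 0.13, Kctd12b by -6.32 ± 0.15 and Fam198b by -5.65 ± 0.11.

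The most abundant genes called with a log2 fold change beyond 1 included Fth1, B2m, H2-D1, H2-K1, Prdx1 and Mpeg1 on the M1-like side, and Ctsd, Ctsl, Lipa, Atp6v0d2, Lpl and Fn1 on the M2-like side. Fth1, the ferritin heavy chain, took the largest number of reads in every M1-like sample and was at 27866, 25691 and 30151 CPM in M1-like and 5078, 6006 and 6347 CPM in M2-like cells (log2 fold change 2.26, SE 0.09, edgeR adjusted p = 3.5e-10). B2m, H2-D1 and H2-K1, which form MHC class I, differed by 1.94 ± 0.06, 1.51 ± 0.09 and 2.66 ± 0.09. Prdx1, a peroxiredoxin, was at 8656, 9359 and 9312 CPM in M1-like and 1962, 1502 and 1626 CPM in M2-like cells (2.42 ± 0.10), and Mpeg1, a pore-forming protein of phagosomes, at 8865, 8495 and 8405 CPM in M1-like and 3946, 3654 and 3489 CPM in M2-like cells (1.22 ± 0.06). On the other side, Ctsd, the lysosomal aspartic protease cathepsin D, was at 4322, 4051 and 4038 CPM in M1-like and 14208, 15751 and 15729.6 CPM in M2-like cells (log2 fold change -1.88, SE 0.06, edgeR adjusted p = 7.6e-11). Ctsl, the cysteine protease cathepsin L, differed by -2.72 ± 0.07, Lipa, the lysosomal acid lipase, by -2.55 ± 0.08, and Atp6v0d2, a subunit of the proton pump, by -2.55 ± 0.11. Lpl, the lipoprotein lipase, was at 485, 538 and 704 CPM in M1-like and 5935, 5172 and 5507 CPM in M2-like cells (-3.27 ± 0.13), and Fn1, the matrix protein fibronectin, at 146, 87.1 and 97.3 CPM in M1-like and 2557, 2546 and 2459.7 CPM in M2-like cells (-4.52 ± 0.17).

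Some abundant genes had a narrow interval around 0. Lamp1, an abundant lysosomal membrane protein, was at 2721, 2637 and 2488 CPM in M1-like and 2722, 2699 and 2617 CPM in M2-like cells, and its log2 fold change of -0.03 had a 95% interval of -0.17 to 0.10. In all, 697 genes (4.33%) had an interval within -0.25 and 0.25. The most abundant of them with Lamp1 were the actin-capping protein Capg (-0.23 to 0.14), the scaffold Iqgap1 (-0.17 to 0.10), the integrin-linking protein Tln1 (-0.12 to 0.23) and Ahnak2 (-0.23 to 0.24). Scaling by library size alone gave all 5 a negative log2 fold change, -0.48 in Capg and -0.38 in Tln1.

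Genes of the protein synthesis machinery were lower in M1-like macrophages. Of 88 tested protein-coding genes of the cytosolic ribosome, 76 were lower and 3 higher, with a median of -0.52, and of 11 elongation factor genes (Eef symbols) 8 were lower and 1 higher. Eef1a1, which delivers aminoacyl-tRNA to the ribosome, was at 610.3, 755 and 865 CPM in M1-like and 1965, 2103 and 2098 CPM in M2-like cells (log2 fold change -1.47, SE 0.10, edgeR adjusted p = 8.3e-08). Symbols that start with Rpl or Rps and a digit held 0.730 to 0.855% of the reads in M1-like and 1.48 to 1.61% in M2-like samples. That set differs from the 88 genes, since it takes in pseudogenes and Rps6k kinases and leaves out Rplp genes. These are shares of raw counts without TMM scaling and cannot be set directly beside the log2 fold changes. Many processed pseudogenes copy these genes, so their reads may be split. Of all 2247 tested processed pseudogenes, whatever gene they copy, 886 (39.4%) were lower and 597 (26.6%) higher. The share of lower ones was near the 38.1% of all genes tested, and the share of higher ones was below their 34.6%. Initiation factors (Eif symbols) differed less, with 17 higher and 22 lower of 54.

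Aminoacyl-tRNA synthetases, which load tRNAs, followed the same side with an exception. Of 37 tested, 21 were lower, 4 higher and 12 not called, with a median of -0.39. Iars was at 39.4, 43.8 and 41.4 CPM in M1-like and 98.6, 94.2 and 97.5 CPM in M2-like cells (-1.22 ± 0.05), and the mitochondrial Mars2 differed by -1.29 ± 0.11. Wars, the tryptophanyl-tRNA synthetase that IFNγ induces, was at 796, 716 and 728 CPM in M1-like and 89.9, 98.1 and 101 CPM in M2-like cells (log2 fold change 2.96, SE 0.07, edgeR adjusted p = 4e-12). Mitochondrial ribosomal proteins showed small changes, with 17 higher, 28 lower and 31 not called of 76, and none of them was higher by a log2 fold change of 1. Among the 13 protein-coding genes encoded in mitochondria, 12 were lower and none higher (median -0.55). All genes of that genome, its ribosomal RNA included, held 0.985 to 1.07% of the raw reads in M1-like and 1.74 to 2.20% in M2-like samples. The highest of these shares was M2-like mouse 1, with mice 2 and 3 at 1.76 and 1.74%. They are not TMM-scaled.

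The remaining genes are described by families that leave out the signature genes, with each count to be read against 34.6% higher and 38.1% lower. Scaling by library size alone gave 11 of the 34 family medians the opposite sign, all of them with a median between 0 and 0.28 under TMM.

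**Figure D3:**
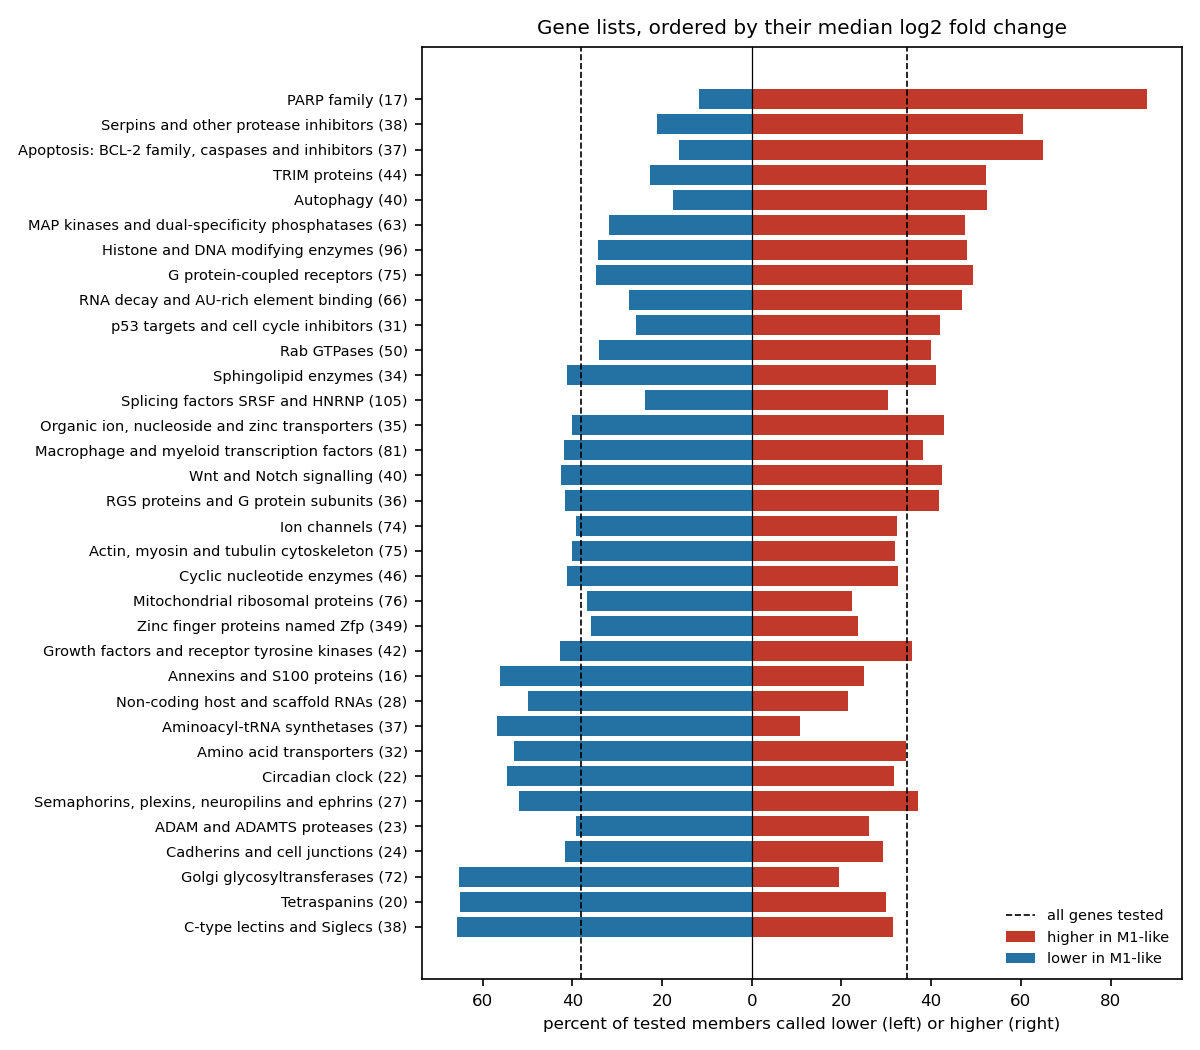
Share of tested members called higher (red, to the right) or lower (blue, to the left) in M1-like macrophages for 34 gene families, with the number tested in parentheses, and the shares of all genes tested as dashed lines at 34.6% and 38.1%. PARP genes stand at the top with 15 of 17 members higher, and tetraspanins and lectin receptors at the bottom.

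At the cell surface, of 38 tested C-type lectins and Siglecs, 25 were lower and 12 higher in M1-like macrophages, with a median of -2.03. With at least 10 counts required in every sample, 11 were lower and 10 higher of 22 (median -0.22), so that the excess of lower genes rests on those with few reads in at least 1 sample. Clec7a, the β-glucan receptor Dectin-1, was at 25.5, 22.6 and 17.6 CPM in M1-like and 1102, 863 and 807 CPM in M2-like cells (log2 fold change -5.40, SE 0.16, edgeR adjusted p = 2.5e-11), and Clec4a3 differed by -5.46 ± 0.19. Clec4d and Clec4n (Dectin-2), which like Clec4e signal through the Fc receptor γ chain, were higher by 1.59 ± 0.07 and 2.44 ± 0.17. Clec4e, Clec4d, Clec4n, Clec4a2, Clec4a3 and Clec7a all lie on chromosome 6, so that lectin genes of the same chromosome differed in both directions. Tetraspanins, which organize membrane domains, were lower in 13 of 20 and higher in 6 (median -0.90). Cd9 was at 102, 97.7 and 95.7 CPM in M1-like and 705, 738 and 736 CPM in M2-like cells (-2.88 ± 0.06), Tspan14 differed by -2.06 ± 0.07, and Cd82 and Tspan3 were higher by 1.71 ± 0.07 and 2.05 ± 0.08.

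G protein-coupled receptors for nucleotides, lysolipids and metabolites split, with 37 higher and 26 lower of 75. The median of 0.17 turned to -0.27 under library size scaling. With at least 10 counts required in every sample, 22 were higher and 18 lower of 47. Hcar2, the receptor for nicotinic acid and ketone bodies, was at 495, 414 and 321 CPM in M1-like and 1.07, 0.742 and 0.453 CPM in M2-like cells (log2 fold change 9.12, SE 0.25, edgeR adjusted p = 1.2e-11). Gpr132, a sensor of lactate and oxidized lipids, was at 232, 227 and 228 CPM in M1-like and 5.3, 4.89 and 4.15 CPM in M2-like cells (5.58 ± 0.10), and the adenosine receptor Adora2a at 58, 57.7 and 59.8 CPM in M1-like and 2.64, 2.84 and 2.76 CPM in M2-like cells (4.41 ± 0.09). P2ry1, a receptor for ADP, went the other way, at 2.08, 2.17 and 1.96 CPM in M1-like and 41.5, 40.4 and 41.2 CPM in M2-like cells (-4.31 ± 0.09), as did the adhesion receptors Adgre5 (-3.70 ± 0.09) and Adgrl2 (-3.96 ± 0.11). Downstream, regulators of G protein signalling and G protein subunits were higher in 15 and lower in 15 of 36, with Rgs2 at -4.18 ± 0.12 and Gnb4 at 2.58 ± 0.11. Among cyclic nucleotide enzymes, 15 of 46 were higher and 19 lower. Pde4b, which breaks down cAMP, was at 147, 124 and 107 CPM in M1-like and 5.53, 4.77 and 4.42 CPM in M2-like cells (log2 fold change 4.69, SE 0.13, edgeR adjusted p = 1.2e-11), and Adcy7 and Adcy9, which make it, differed by -2.23 ± 0.08 and -2.18 ± 0.10.

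Guidance and growth factor receptors were divided gene by gene. In semaphorins, plexins, neuropilins and ephrins, 10 were higher and 14 lower of 27. The neuropilins stood on opposite sides: Nrp2 was at 1529, 1523 and 1712 CPM in M1-like and 229, 239 and 246 CPM in M2-like cells (log2 fold change 2.74, SE 0.07, edgeR adjusted p = 6.1e-12) and Nrp1 at 105, 97.5 and 111 CPM in M1-like and 445, 427 and 417 CPM in M2-like cells (log2 fold change -2.04, SE 0.07, edgeR adjusted p = 5.2e-11). Among growth factors and receptor tyrosine kinases, 15 of 42 were higher and 18 lower, and the called members differed by a median absolute log2 fold change of 2.63. That median includes members with few reads in at least 1 sample. With at least 10 counts required in every sample, 8 were higher and 13 lower of 26. Axl, a receptor for the bridging of apoptotic cells, was at 447, 515 and 476 CPM in M1-like and 18.6, 23 and 17.1 CPM in M2-like cells (log2 fold change 4.61, SE 0.14, edgeR adjusted p = 3.9e-11), while its ligand Gas6 differed by -2.55 ± 0.21. Met was at 284, 281 and 346 CPM in M1-like and 31.3, 31.4 and 34.3 CPM in M2-like cells (3.23 ± 0.12), while its ligand Hgf was at 0.243, 0.204 and 0.187 CPM in M1-like and 26.4, 24.2 and 24.7 CPM in M2-like cells (log2 fold change -6.89, SE 0.11, edgeR adjusted p = 2.8e-13). In both ligand and receptor pairs the receptor was thus higher and the ligand lower in M1-like cells. In Wnt and Notch signalling, 17 were higher and 17 lower of 40, with the receptor Notch1 at 2.47 ± 0.13, its ligand Jag1 at 3.22 ± 0.08 and the coactivators Maml2 and Maml3 at -1.44 ± 0.08 and -1.42 ± 0.12. Cadherins and junction proteins were higher in 7 and lower in 10 of 24, with Tjp1 at 2.89 ± 0.16 and Marveld1 at -2.57 ± 0.12.

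Actin, myosin and tubulin genes did not follow one side, with 24 higher and 30 lower of 75. Zyx, a focal adhesion protein, was at 1874, 1697 and 1697 CPM in M1-like and 144, 162 and 186 CPM in M2-like cells (log2 fold change 3.42, SE 0.09, edgeR adjusted p = 1.3e-11), and Gsn, which severs actin filaments, at 27.4, 27.8 and 29.1 CPM in M1-like and 164, 198 and 213 CPM in M2-like cells (-2.77 ± 0.09). Annexins and S100 proteins were lower in 9 and higher in 4 of 16, led by S100a4 (-4.66 ± 0.11) and by Anxa1, a mediator that ends inflammation, at 133, 138 and 141 CPM in M1-like and 1969, 1749 and 1627 CPM in M2-like cells (log2 fold change -3.70, SE 0.08, edgeR adjusted p = 2e-12). Rab GTPases and their regulators were higher in 20 and lower in 17 of 50, a balance that library size scaling turned to 10 and 31. Rab20 differed by 3.16 ± 0.08 and Rab3il1 by -4.77 ± 0.11.

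Transporters and channels changed individually. Amino acid transporters were higher in 11 and lower in 17 of 32. Slc7a2, which imports arginine, was at 5740.4, 4649.8 and 4984 CPM in M1-like and 566, 449 and 484 CPM in M2-like cells (log2 fold change 3.36, SE 0.11, edgeR adjusted p = 6.1e-11), and M0 held 59.4 CPM, so that both stimulated conditions were above M0. Slc7a11, the cystine importer, was at 612, 458 and 416 CPM in M1-like and 63, 47.2 and 46.7 CPM in M2-like cells (3.24 ± 0.15), and the glutamine transporter Slc1a5 at 18.8, 21.5 and 21.9 CPM in M1-like and 66.6, 78.5 and 82.6 CPM in M2-like cells (-1.87 ± 0.09). Of 74 ion channel genes, 24 were higher, 29 lower and 21 not called. Lrrc8c, of the volume-regulated anion channel, differed by 3.54 ± 0.07, and Kcnj2, the inward rectifier potassium channel, by -4.07 ± 0.11. Of 35 organic ion, nucleoside and zinc transporters 15 were higher and 14 lower, among them the nucleoside transporters Slc28a2 (3.38 ± 0.20) and Slc29a1 (-2.37 ± 0.10) in opposite directions.

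Golgi glycosyltransferases, which build the sugar chains of the surface, were lower in 47 and higher in 14 of 72, with a median of -0.50. Galnt9, which starts O-glycans, was at 0.324, 0.281 and 0.27 CPM in M1-like and 28.5, 36.6 and 38.6 CPM in M2-like cells (log2 fold change -6.89, SE 0.17, edgeR adjusted p = 4.4e-12). St8sia4, a polysialyltransferase, was at 13.8, 14.4 and 13.3 CPM in M1-like and 202, 156 and 144 CPM in M2-like cells (-3.60 ± 0.12), and Gcnt1, which branches O-glycans, differed by -3.70 ± 0.12. St3gal5, which makes the ganglioside GM3, was higher at 536, 546 and 587 CPM in M1-like and 32.3, 31.6 and 29.7 CPM in M2-like cells (log2 fold change 4.16, SE 0.08, edgeR adjusted p = 9.1e-13). In sphingolipid metabolism, 14 were higher and 14 lower of 34, with Smpdl3b at 103, 87.7 and 108 CPM in M1-like and 0.926, 0.919 and 0.852 CPM in M2-like cells (6.79 ± 0.13) and the ceramide synthases Cers6 and Cers5 on opposite sides (2.05 ± 0.07 and -1.43 ± 0.06).

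Of 38 serpins and other protease inhibitors, 23 were higher and 8 lower in M1-like macrophages, with a median of 0.94 that stayed positive (0.50) under library size scaling. With at least 10 counts required in every sample, 9 were higher and 7 lower of 22 (median 0.13). Serpina3g was at 1216, 1223 and 1252 CPM in M1-like and 0.695, 0.459 and 0.308 CPM in M2-like cells (log2 fold change 11.33, SE 0.17, edgeR adjusted p = 2.1e-13), and Serpinb9, an inhibitor of granzyme B, at 484, 454 and 536 CPM in M1-like and 22.5, 18.1 and 21.9 CPM in M2-like cells (4.56 ± 0.11). The Serpina3 genes are near copies of each other and their counts may be divided. Of 23 tested ADAM and ADAMTS genes, 6 were higher and 9 lower (5 and 5 of 15 with at least 10 counts in every sample), with Adam17, the TNF-releasing protease, at 0.77 ± 0.06 and Adam10 at -1.67 ± 0.07.

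Genes of cell death and survival were mostly higher. Of 37 BCL-2 family, caspase and inhibitor genes, 24 were higher and 6 lower, with a median of 0.74 (0.30 under library size scaling). The members that moved both promote and block death. Fas, the death receptor, was at 61.3, 77 and 77.2 CPM in M1-like and 4.42, 3.78 and 3.63 CPM in M2-like cells (log2 fold change 4.19, SE 0.11, edgeR adjusted p = 9.4e-12), and Cflar, which blocks caspase-8 at that receptor, at 925, 929 and 936 CPM in M1-like and 105, 90.1 and 88.3 CPM in M2-like cells (log2 fold change 3.30, SE 0.08, edgeR adjusted p = 3.5e-12). Birc3, an inhibitor of apoptosis protein, was at 250.4, 241 and 233 CPM in M1-like and 30.3, 27.1 and 26.3 CPM in M2-like cells (3.12 ± 0.07). The lower members included Bmf (-3.61 ± 0.11) and Bcl2l11, the death-promoting protein Bim (-2.01 ± 0.10), together with the survival gene Bcl2 (-1.31 ± 0.08). Of 31 p53 targets and cell cycle inhibitors 13 were higher and 8 lower, a median of 0.14 that became -0.30 under library size scaling. Cdkn1a, the cell cycle inhibitor p21, was at 1222, 1086 and 1003 CPM in M1-like and 87.7, 93 and 107 CPM in M2-like cells (log2 fold change 3.52, SE 0.10, edgeR adjusted p = 1.2e-11) and Mdm2, which degrades p53, at 918, 866 and 907 CPM in M1-like and 135, 125 and 123 CPM in M2-like cells (2.81 ± 0.07), whereas Sesn1 and Gadd45a differed by -2.52 ± 0.08 and -2.23 ± 0.10. Autophagy genes were higher in 21 and lower in 7 of 40 with small changes, and under library size scaling 9 were higher and 23 lower. Sqstm1, the cargo receptor p62, was at 2341, 2403 and 2782 CPM in M1-like and 709, 815 and 864 CPM in M2-like cells (1.66 ± 0.09) and Atg7 at -0.92 ± 0.07.

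Genes of the PARP family, named for enzymes that attach ADP-ribose, were higher almost throughout. Of 17, 15 were higher, 2 lower and none not called, with a median of 1.77 (1.33 under library size scaling, with 10 higher and 3 lower). Parp14 was at 2626, 2527 and 2659 CPM in M1-like and 114, 104 and 97.1 CPM in M2-like cells (log2 fold change 4.63, SE 0.08, edgeR adjusted p = 4.2e-13), Parp10 at 335, 286 and 343 CPM in M1-like and 22.5, 26.5 and 25.9 CPM in M2-like cells (3.68 ± 0.09) and Parp12 differed by 3.58 ± 0.06. The DNA repair enzymes Parp1 and Parp2 were the lower ones, with Parp1 at 28.8, 30.5 and 30.8 CPM in M1-like and 69.6, 70.1 and 72.3 CPM in M2-like cells (log2 fold change -1.23, SE 0.05, edgeR adjusted p = 7.7e-10) and Parp2 at -0.61 ± 0.08. TRIM ubiquitin ligases were higher in 23 and lower in 10 of 44, with a median of 0.28 that turned to -0.16 under library size scaling. Trim30a was at 1000.1, 1023 and 1089.9 CPM in M1-like and 84.8, 69.4 and 66.9 CPM in M2-like cells (3.82 ± 0.10).

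Transcription factors of the myeloid lineage were divided evenly, with 31 higher and 34 lower of 81. Runx3 was at 66.2, 43.7 and 34.7 CPM in M1-like and 2.18, 1.75 and 2.09 CPM in M2-like cells (log2 fold change 4.59, SE 0.25, edgeR adjusted p = 6.3e-09) and Maff at 3.22 ± 0.10, whereas Id3 was at -3.77 ± 0.15 and Runx2 at -2.99 ± 0.14. Runx2 and Runx3, which bind the same DNA letters, thus stood on opposite sides. Among enzymes that modify histones and DNA, 46 were higher and 33 lower of 96, counts that became 24 and 51 under library size scaling. Kdm6b, the demethylase of histone H3 lysine 27, was at 98.8, 82.9 and 77.8 CPM in M1-like and 7.06, 8.25 and 8.61 CPM in M2-like cells (log2 fold change 3.43, SE 0.11, edgeR adjusted p = 4.7e-11), Kdm4b and Jmjd6 differed by 2.39 ± 0.10 and 2.39 ± 0.07, and the methyltransferases Smyd3 and Prmt7 by -2.01 ± 0.07 and -1.91 ± 0.13. Clock genes were higher in 7 and lower in 12 of 22. The repressors Per1 and Cry1 were at 56.5, 44.7 and 42.4 CPM in M1-like and 10.1, 12.2 and 13.8 CPM in M2-like cells (1.98 ± 0.12) and 41.4, 32 and 30.3 CPM in M1-like and 9.33, 10.1 and 9.38 CPM in M2-like cells (1.85 ± 0.11), and the activator Arntl and the receptor Nr1d2 differed by -0.90 ± 0.07 and -1.13 ± 0.09. Of 349 zinc finger genes with Zfp symbols, 83 were higher, 125 lower and 141 not called.

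Genes that act on RNA mostly differed by small amounts. Called splicing factors had a median absolute log2 fold change of 0.37 and called RNA decay genes 0.59, compared with 0.81 over all called genes. Splicing factors of the SRSF and HNRNP groups were higher in 32, lower in 25 and not called in 48 of 105, and 3 of them passed an absolute log2 fold change of 1. Of 66 RNA decay genes, 31 were higher and 18 lower, a median of 0.16 that became -0.28 under library size scaling. By a log2 fold change of at least 1, 9 of them were higher and 1 lower. Zc3h12c and Zc3h12a, endonucleases of the Regnase family that cut inflammatory mRNAs, were at 114, 115 and 119.9 CPM in M1-like and 15.6, 12.6 and 13.6 CPM in M2-like cells (log2 fold change 3.06, SE 0.09, edgeR adjusted p = 1.5e-11) and 86.9, 83.1 and 90.4 CPM in M1-like and 18.7, 23.8 and 24.4 CPM in M2-like cells (log2 fold change 1.96, SE 0.09, edgeR adjusted p = 1.7e-09). In MAP kinase signalling, 30 were higher and 20 lower of 63, a median of 0.22 that became -0.22 under library size scaling. Map2k1 was at 583, 518 and 533 CPM in M1-like and 96.9, 105 and 103 CPM in M2-like cells (2.42 ± 0.07), the phosphatase Dusp16 differed by 2.77 ± 0.10 and Map4k1 by -2.68 ± 0.08.

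Of 12395 protein-coding genes, 4568 were higher and 4796 lower, and of 818 long non-coding RNA genes 218 (26.7%) were higher and 270 (33.0%) lower. The interferon-inducible transcript AW112010 was at 473, 386 and 500.1 CPM in M1-like and 4.84, 3.34 and 3.17 CPM in M2-like cells (log2 fold change 6.92, SE 0.18, edgeR adjusted p = 9e-12). Of 28 host and scaffold RNAs, 14 were lower and 6 higher, with Mir22hg at 1.18 ± 0.06 and the X-linked RNA Firre at -1.11 ± 0.11. Of 321 antisense genes, 103 were higher and 83 lower, but the strand setting of the counting is not given in the sources used here, so reads of an antisense gene and its partner cannot be told apart.

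Some genes that differed strongly lay side by side. The number of runs to be expected when 15.4% of genes are higher and 15.2% lower by that much was not worked out. Among tested genes with a symbol, 54 runs of at least 4 neighbours were all higher by a log2 fold change of 1 or more, 14 of them with at least 7 genes, and 51 runs of at least 4 neighbours were all lower, 2 of them with 7 genes. The longest run, of 20 genes at chr1:85027954-85709998, holds Sp100, Sp110 and Sp140, nuclear body proteins, and 5 of its genes are protein-coding while the others are pseudogenes and non-coding genes. Sp100 was at 364, 335 and 354 CPM in M1-like and 46.6, 39.97 and 37.6 CPM in M2-like cells (log2 fold change 3.09, SE 0.08, edgeR adjusted p = 1.3e-11) and Sp140 and Sp110 differed by 2.94 ± 0.10 and 3.17 ± 0.07. Reads may be shared among these neighbours, so that the number of separate transcripts is uncertain. A run of 16 genes at chr17:34092340-34316674 covers the MHC class II region, with the antigen transporter Tap1 at 1161, 1083 and 1164 CPM in M1-like and 32.6, 38 and 41.5 CPM in M2-like cells (log2 fold change 4.93, SE 0.09, edgeR adjusted p = 8.3e-13), the immunoproteasome subunit Psmb9 at 229, 241 and 262 CPM in M1-like and 20.7, 26.8 and 27 CPM in M2-like cells (3.29 ± 0.10) and the class II chain H2-Ab1 at 1548, 1487 and 1491 CPM in M1-like and 137, 144 and 129 CPM in M2-like cells (3.46 ± 0.11). A run of 17 genes on the same chromosome holds non-classical class I genes, with H2-T23 at 2.35 ± 0.08.

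A run of 13 genes on chromosome 1, of which 12 belong to the DNA-sensing Ifi200 family and the other is the olfactory receptor gene Olfr433, had log2 fold changes from 1.32 to 9.86. Ifi213 was at 302, 320.4 and 339 CPM in M1-like and 0.347, 0.30 and 0.381 CPM in M2-like cells (log2 fold change 9.86, SE 0.14, edgeR adjusted p = 1.7e-13) and Ifi207 at 483, 487 and 512 CPM in M1-like and 225, 193 and 177 CPM in M2-like cells (log2 fold change 1.32, SE 0.09, edgeR adjusted p = 4.2e-08), so that neighbours with like sequence differed in size of response by over 8 on the log2 scale. A run of 12 on chromosome 7 holds the Trim5 and Trim30 genes. Further runs of 8 held the Serpina3 genes on chromosome 12 and the Ly6 genes on chromosome 15.

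**Figure D4:**
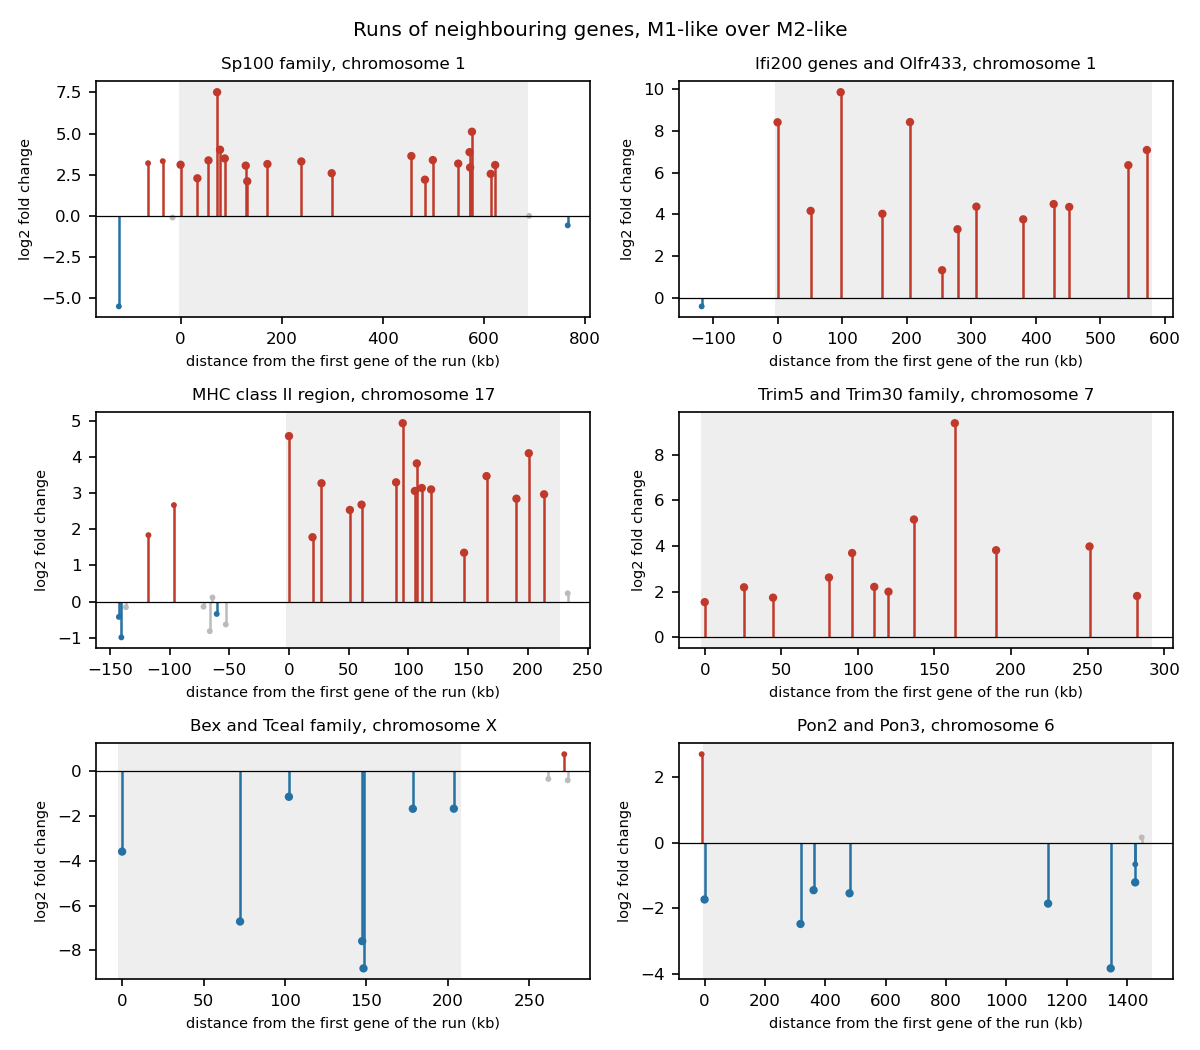
Log2 fold change of M1-like over M2-like (vertical axes) of tested genes by distance from the first gene of a run (horizontal axes, kb), for 4 runs of higher and 2 runs of lower genes, with the run shaded, higher genes in red, lower genes in blue and genes that were not called in grey. Each gene of a run (large points) differs by at least 1, small points are neighbours that are not in the run, and the run with the Ifi200 genes reaches 9.86. Tceal7, which had no read in M1-like cells, is drawn at its fitted value.

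Runs of lower genes were shorter. On the X chromosome, 7 neighbours of the Bex and Tceal families, small proteins linked to transcription elongation and growth factor signalling, were all lower in M1-like cells. Bex1 was at 0.054, 0.102 and 0.146 CPM in M1-like and 21.7, 22.4 and 17.6 CPM in M2-like cells (log2 fold change -7.59, SE 0.20, edgeR adjusted p = 9e-12) and Tceal9 at 21.4, 19.9 and 18.1 CPM in M1-like and 81.2, 58 and 51.8 CPM in M2-like cells (log2 fold change -1.68, SE 0.14, edgeR adjusted p = 3.7e-07). Tceal7 had no read in any M1-like sample and 176 over the 3 M2-like samples, where it was at 1.41, 1.13 and 0.925 CPM. A run of 7 on chromosome 6 holds the paraoxonases Pon2 and Pon3, which hydrolyse oxidized lipids, at -1.45 ± 0.05 and -2.47 ± 0.10.

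The X chromosome stood out among chromosomes. Of 394 tested X-linked protein-coding genes, 214 (54.3%) were lower and 78 (19.8%) higher in M1-like cells, compared with 38.2% and 37.4% of 11954 autosomal genes. The median log2 fold change was -0.34 on the X chromosome and -0.02 on autosomes, and within each mouse it was -0.41, -0.28 and -0.32 on the X chromosome against -0.02, -0.02 and -0.01. Among genes with a mean log2 CPM of at least 4, the medians were -0.22 for 202 X-linked and 0.09 for 6457 autosomal genes. X-linked genes had a median of -0.29 in M1-like and 0.07 in M2-like cells relative to M0. Library size scaling moved both medians alike, to -0.77 and -0.46. On the autosomes the share of lower genes ran from 31.5% on chromosome 17 to 44.6% on chromosome 6, and the share of higher genes from 28.9% on chromosome 13 to 44.2% on chromosome 5.

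**Figure D5:**
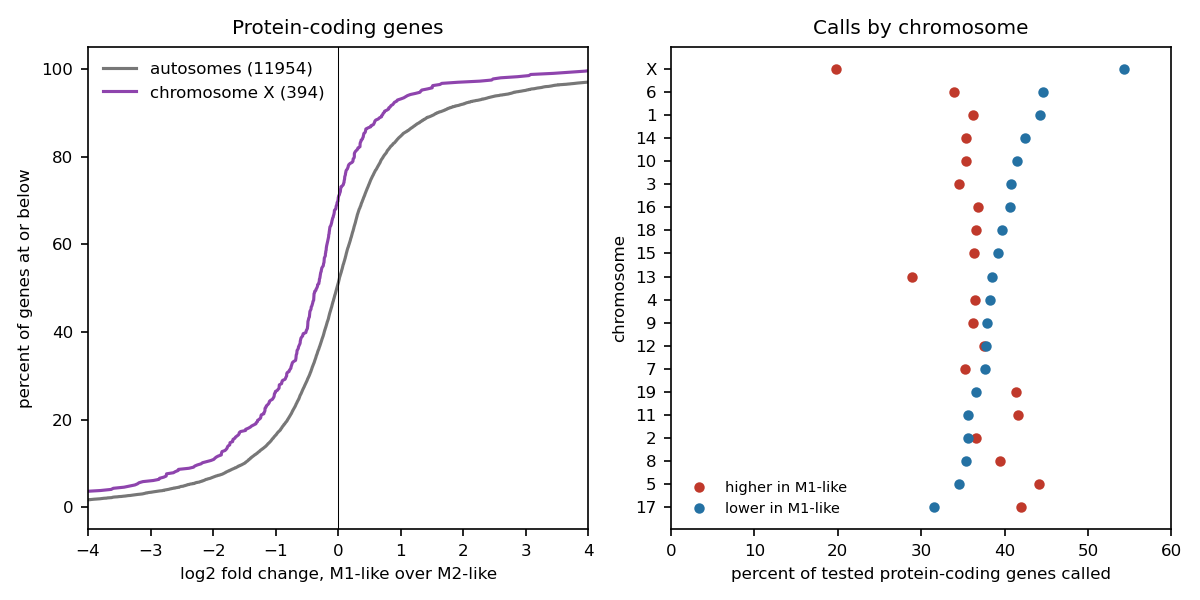
Left, the percent of protein-coding genes (vertical axis) at or below each log2 fold change (horizontal axis) for 394 X-linked and 11954 autosomal genes. Right, the percent of tested protein-coding genes called higher (red) or lower (blue) in M1-like cells by chromosome, where the X chromosome has 54.3% lower and 19.8% higher.

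X-linked genes on both sides were picked after their values were seen. Tlr8, a receptor for single-stranded RNA, was at 4.81, 4.21 and 4.87 CPM in M1-like and 245, 208 and 193 CPM in M2-like cells (log2 fold change -5.53, SE 0.11, edgeR adjusted p = 8.4e-13), and Tlr13, which senses bacterial ribosomal RNA, at 57.8, 55.7 and 79.5 CPM in M1-like and 434, 359 and 341 CPM in M2-like cells (log2 fold change -2.55, SE 0.13, edgeR adjusted p = 4.6e-09). Arhgef6, an exchange factor for Rac, differed by -3.34 ± 0.08. Cybb, the catalytic subunit of the phagocyte NADPH oxidase, was higher at 5798, 5579 and 5562 CPM in M1-like and 627, 501 and 432 CPM in M2-like cells (log2 fold change 3.44, SE 0.12, edgeR adjusted p = 8.3e-11), as was Il2rg, the common cytokine receptor γ chain, at 238, 236 and 273 CPM in M1-like and 43, 39.8 and 40.7 CPM in M2-like cells (2.60 ± 0.07).

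For 7362 genes with a mean log2 CPM of at least 4, the median SD of log2 CPM over the 3 mice was 0.07 in M1-like, 0.11 in M2-like and 0.05 in M0 samples, and the median absolute difference between M1-like and M2-like cells of the same mouse was 0.44 to 0.52. The same measure between mice of a condition was 0.0727 to 0.0932 in M1-like samples and 0.0499 between M2-like mice 2 and 3, but 0.158 and 0.185 between M2-like mouse 1 and those mice. Genes with the largest spread were mostly gene models and loci that hold ribosomal RNA sequence. Gm42418, on chromosome 17, was at 4821, 205 and 2181 CPM in M1-like and 12158, 295 and 234 CPM in M2-like cells, and Lars2 at 740.3, 45 and 331 CPM in M1-like and 2573, 68.2 and 58.4 CPM in M2-like cells. Neither was called, and mouse 1 was the highest in both conditions. The mitochondrial ribosomal RNA mt-Rnr2 was at 258, 144 and 165 CPM in M1-like and 792, 154 and 147 CPM in M2-like cells, with M2-like mouse 1 above all others. Without M2-like mouse 1, 5820 genes were higher and 6254 lower. Prg4, lubricin, was at 132, 63.9 and 144 CPM in M1-like and 106, 65 and 116 CPM in M2-like cells and was lowest in mouse 2 in both conditions.

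Untransfected M1-like and M2-like macrophages were also sequenced in the reprogramming experiment of the series, with 3 replicates each and paired reads of 150 nucleotides. Their harvest time is not given in the labels. The paper places RNA sequencing 48 h after transfection in the reprogramming study and 24 h after polarization for profiles without transfection. The word "later" is used here only as a name for this experiment. The untransfected libraries held 13421854 to 16365521 counted reads, fewer than the 39577911 to 59443987 of the summed 24 h samples. The part of this lower depth in the number of calls was not tested. In that comparison 4429 of 14172 tested genes (31.3%) were higher and 4282 (30.2%) lower in M1-like cells, or 61.5% either way. Of 4858 genes called at 24 h with a log2 fold change beyond 1 either way in the joint model, 2798 (57.6%) were called in the same direction there, 381 (7.84%) in the opposite direction, and 1679 (34.6%) were not called. The difference between the experiments was itself called in 7914 of 16230 genes (48.8%), and in 5149 of these the 24 h difference was the larger. Read layout and sequencing centre changed together, and harvest time may have changed with them. Their parts cannot be told apart. The paper states that culture after transfection went on without IL-4. Whether the stimuli stayed on the untransfected cells is not given in the sources used here, and the later replicates carry no mouse numbers. Among the largest changes, Tgtp2 kept a log2 fold change of 9.94, whereas Ptgs2 stood at 4.85, Tmem26 at -1.31 and Prdx1 at 0.22. X-linked protein-coding genes were lower in 44.1% and higher in 19.3% of 367 there, compared with 30.4% and 33.99% of 11463 autosomal genes.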

How the data were processed

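RNA sequencing counts of M0, M1-like and M2-like peritoneal macrophages were used. The authors trimmed reads with Trimmomatic, mapped them to GRCm38/mm10 with TopHat2, counted them with featureCounts and deposited whole-number read counts per gene without normalization. Versions, the strand setting and the treatment of reads that map to several places are not given in the sources used here.

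Technical libraries were summed per mouse and condition (chi-square per gene 1.07 to 1.10 between them). Genes passed edgeR's filterByExpr (minimum count 10, minimum total 15), were scaled with TMM, and were compared with edgeR's two-sided quasi-likelihood test with Benjamini-Hochberg adjustment over 16110 genes, with M0 in the model. SE is the log2 fold change divided by the root of the F statistic, and 95% intervals use it with 6 degrees of freedom. CPM values are TMM-scaled. Symbols and positions came from GENCODE M21 (37693 of 39179 identifiers). Identifiers without a symbol held at most 0.534% of counts. The comparison with untransfected cells of the reprogramming experiment used the same test and an interaction contrast.

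Mouse numbers mark the same animal in each condition. Deviations from condition means correlated between M1-like and M2-like samples of the same mouse (r 0.27, 0.25 and 0.22 over 10755 genes). Over 9 same-mouse pairs with M0 included the median was 0.25 and the lowest -0.0559 (M0 with M2-like, mouse 3). The median over 18 pairs of different mice was -0.14. Such deviations cancel over the mice of a condition, so a positive value for the same mouse forces negative values for different mice. The median of -0.14 is therefore not an independent baseline.

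Named genes, outside the signature and the extremes already known in these data, were the 15 largest changes each way (called, no overlap between groups, mean log2 CPM of at least 3), the 8 most abundant called genes each way with a log2 fold change beyond 1, up to 3 called members of each family each way, 5 abundant genes with narrow intervals, the 5 widest spreads per condition, members of the longest runs and the 5 largest opposite differences each way between experiments. Genes and families were chosen with earlier results of these data known. Alternatives were DESeq2, RLE, the replicate block, dropping the filter, requiring 10 counts in each sample, M1-like and M2-like samples alone, 1 technical library per mouse, glmTreat, leaving out each replicate and, chosen after seeing the data, library size scaling. Promoters are from RefSeq (GRCm38.p6), searched over 250 bases on both strands, with 9762 tested protein-coding genes matched. R 4.3.3, edgeR 4.0.16, DESeq2 1.42.0, matplotlib 3.10.9, pandas 2.3.3, SciPy 1.17.1, NumPy 2.4.6 and Python 3.11.15 were used. A few genes and 1 gene family are not reported here.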

Additional observations from a re-analysis of the deposited data

Results flagged for a closer look

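The M1-like against M2-like difference changed between the 24 h and the later experiment in 7914 of 16230 genes by an interaction test (edgeR, adjusted p under 0.05), and 1404 of the 6552 genes called in both were called in opposite directions. Here "later" names the untransfected cells of the reprogramming experiment, whose harvest time is not given in the labels. That time, read layout, sequencing centre and whether the stimulus was still present cannot be told apart. The 10 genes given here had the largest fitted differences, 5 each way, among the genes called in opposite directions that passed the expression limit.

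Abca1, which exports cholesterol, was higher in M1-like cells at 24 h and lower later, so that the log2 fold changes differed by 4.30. It was at 678, 453 and 416 CPM in M1-like and 109.6, 92.8 and 78.5 CPM in M2-like cells at 24 h, and at 119, 184 and 122 against 504, 589.9 and 412 CPM later. F3, tissue factor, differed by 4.50 and was at 52.6, 36.3 and 28.9 CPM in M1-like and 4.61, 3.8 and 3.86 CPM in M2-like cells at 24 h and at 1.34, 1.61 and 1.39 against 2.79, 3.80 and 3.50 CPM later. Siglec1, sialoadhesin, differed by 3.76, with 94.9, 101 and 148 CPM in M1-like and 39.3, 55.2 and 52.4 CPM in M2-like cells at 24 h and 25.6, 17.2 and 19.8 against 125, 117 and 117 CPM later. Malt1, a signalling protease upstream of NF-κB, differed by 3.74. Havcr2, the receptor Tim-3, was lower in M1-like cells at 24 h (3.19, 3.12 and 4.37 CPM in M1-like and 22.7, 22.5 and 24.4 CPM in M2-like cells) and higher later (27.0, 29.5 and 34.3 against 15.3, 11.99 and 13.8 CPM), a difference of -3.82. Car6, a secreted carbonic anhydrase, differed by -5.10 in the same sense, with 8.11, 5.52 and 8.24 CPM in M1-like and 30.6, 23.5 and 30.1 CPM in M2-like cells at 24 h.

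The other 4 were gene models with nearly no reads in the later experiment, where no M1-like or M2-like sample exceeded 0.244 CPM: Gm14138 (-5.30), Gm11826 (-5.004), Gm10343 (-4.74) and Gm15599 (5.31). In each of them 1 condition had no read in any later sample, so the fitted later value and the difference depend on the prior count and are not measured sizes.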

How the results depend on the processing

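DESeq2, RLE, no filter, at least 10 counts per sample, 1 technical library per mouse and M1-like with M2-like samples alone left the counts of higher and lower genes at 24 h within 1.5 times of those reported. glmTreat against a log2 fold change of 1 called 2070 higher and 1752 lower, and library size scaling 3222 higher and 9795 lower. Leaving out 1 replicate gave 5335 to 5820 higher and 5796 to 6254 lower at 24 h, 4119 to 4226 higher and 3952 to 4138 lower later, and 7394 to 7960 differences between the experiments. With the replicate block, which pairs the samples of a mouse, 5537 genes were higher and 6083 lower (11620 in all). Of 2696 values of named genes under alternatives, 15 changed sign, all in genes that were not called. Under the block Gm42418 stood at 0.34, and Prg4 was called (0.20), the only named gene whose call the block changed. RLE gave Iqgap1 0.00342 and Lamp1 0.00306, the 10-count filter gave Ahnak2 -0.00740, and library size scaling gave Ahnak2 -0.43, Prg4 -0.20 and Tln1 -0.38. Leaving out 1 replicate, values ran from -0.10 to 0.0661 in Ahnak2, from -0.12 to 0.00208 in Capg, from -0.0606 to 0.00319 in Lamp1, from -1.82 to 3.18 in Gm42418, from -2.25 to 2.55 in Lars2 and from -1.33 to 0.33 in mt-Rnr2, whose positive values in the last 3 are those without M2-like replicate 1. The causes were not tested. Of 68 family counts, 55 moved by over 1.5 times under glmTreat, 29 under library size scaling and 5 under the 10-count filter. At this depth 440 higher and 678 lower genes rest on fewer than 30 reads in the lower condition, and 2008 of 4407 genes that were not called have intervals reaching past 0.5.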
